A study of Mus musculus with 12 samples.

Results

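The 5 mouse *Morc* genes, *Morc1*, *Morc2a*, *Morc2b*, *Morc3* and *Morc4*, were followed together with *Mroh1* and *Mroh4*, a pair of genes of the maestro HEAT-like repeat family. They were chosen by name, and make up 7 of the 20620 genes in the counts table. *Morc2b* and *Mroh4* were picked for their near absence in *Mael*-/- libraries, so their genotype differences are described without a test, while the other 5 genes were tested. RNA and ribosome footprints came from whole testes of C57BL/6 mice at postnatal day 16. The heterozygous controls (*Mael*+/-) carried 1 working copy of *Mael*, and the mutants (*Mael*-/-) none. *Mael* encodes Maelstrom, a protein needed to make the piRNAs that restrain transposons in male germ cells. There were 3 libraries for each genotype in each assay, 12 in all, and all testes were collected in cycloheximide, which holds ribosomes on mRNA. The labels do not say whether replicates were separate animals or pools, so p-values measure only the spread between these libraries.

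MORC proteins are nuclear ATPases that bind and compact DNA and help to keep genes and transposons silent. MORC1 acts in male germ cells, where it is needed to silence transposons and to complete spermatogenesis. MORC2A works with the HUSH silencing complex in many cell types, and MORC2B is a close relative required for meiosis. MORC3 represses endogenous retroviruses and gathers in PML nuclear bodies, while MORC4 is less studied. Little is known of what MROH1 and MROH4 do in the testis.

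*Morc2a* and *Morc2b* are the pair whose reads could be confused, so their sequences are shown first. Over 3059 aligned bases their coding sequences were 80.03% identical in RefSeq (GRCm38, the mm10 build). Of all 30-base words in the coding sequences, 10 occurred in both genes, 0.326% of those of *Morc2a* and 0.329% of those of *Morc2b*. The other 20 pairs of the 7 genes shared 0 such words. The first 120 coding bases, where capitals mark the 13 bases that differ between the genes, lie at chr11:3650380-3658723 on the plus strand for *Morc2a*, a span that includes introns, and at chr17:33138677-33138796 on the minus strand for *Morc2b*:
Morc2a: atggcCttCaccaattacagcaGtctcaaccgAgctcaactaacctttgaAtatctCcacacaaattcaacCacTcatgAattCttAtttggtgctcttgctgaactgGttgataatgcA
Morc2b: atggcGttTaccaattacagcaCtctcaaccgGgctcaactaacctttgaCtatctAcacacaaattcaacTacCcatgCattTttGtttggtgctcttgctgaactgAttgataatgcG
The longest run that was the same in both genes had 38 bases, at chr11:3679720-3679757 in *Morc2a* and chr17:33137622-33137659 in *Morc2b*, and a footprint inside it cannot be assigned to either gene:
shared run: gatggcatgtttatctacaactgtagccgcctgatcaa
How the counting treated reads that match both genes is not stated.

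The 250 bases before annotated starts of the 2 genes are shown because only *Morc2b* was low in one genotype. Capitals mark the core of the motif of MYB factors, A-MYB (*Mybl1*) being the one that switches on many genes at pachytene, searched as AACNG on the forward strand and CNGTT for the reverse strand, and none of the matches shown overlap. Outer and inner refer only to the listed starts. Both *Morc2b* windows lie inside its RefSeq span (chr17:33135588-33150499). The *Morc2a* window lies almost wholly inside its own span (chr11:3649189-3690477). They are thus not sequence before the outermost base of either gene. The windows are chr11:3649187-3649436 (plus strand) before the outer listed start of *Morc2a*, and chr17:33139684-33139933 and chr17:33148750-33148999 (minus strand) before those of *Morc2b*, in RefSeq on GRCm38:
Morc2a start: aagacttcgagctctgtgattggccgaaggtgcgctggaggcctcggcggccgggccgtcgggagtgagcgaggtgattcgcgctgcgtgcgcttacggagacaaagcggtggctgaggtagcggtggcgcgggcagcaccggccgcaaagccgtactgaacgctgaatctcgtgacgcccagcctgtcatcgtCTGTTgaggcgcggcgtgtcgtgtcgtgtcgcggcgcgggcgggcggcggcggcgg
Morc2b inner start: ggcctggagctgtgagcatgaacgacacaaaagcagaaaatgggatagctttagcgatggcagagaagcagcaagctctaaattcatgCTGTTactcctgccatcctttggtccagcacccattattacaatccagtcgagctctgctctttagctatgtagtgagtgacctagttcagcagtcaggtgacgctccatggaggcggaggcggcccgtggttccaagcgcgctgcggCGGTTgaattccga
Morc2b outer start: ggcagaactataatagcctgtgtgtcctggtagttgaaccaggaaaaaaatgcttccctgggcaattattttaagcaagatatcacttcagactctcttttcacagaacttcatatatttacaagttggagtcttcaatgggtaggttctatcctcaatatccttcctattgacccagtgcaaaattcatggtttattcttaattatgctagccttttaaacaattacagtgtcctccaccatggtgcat
The *Morc2a* window was 69.6% G or C and held 39 CpG sites and 1 core. A second *Morc2a* window, at chr11:3658422-3658671 and not printed, was 26.4% G or C with 0 CpG sites and 1 core, so each gene had a start with CpG sites and one with 0. The inner window of *Morc2b* held 12 CpG sites at 53.2% G or C and 2 cores, and the outer one 0 CpG sites at 38% G or C and 0 cores. Over 32851 windows of this length the median was 6 CpG sites, and 74.2% held at least 1 core, so a match is common and describes letters only. Windows were at hand for 4 of the 7 genes.

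The genes differ in build as well. *Morc2b* (chr17:33135588-33150499, minus strand) has 3 exons with its coding sequence in 1 of them, whereas *Morc2a* (chr11:3649189-3690477, plus strand) spreads a coding sequence of nearly equal length, 3093 against 3069 bases, over 26 exons. *Morc1* (chr16:48431237-48630905, plus strand) has 27 coding exons, *Morc3* (chr16:93832121-93876077, plus strand) has 17 and *Morc4* (chrX:139821635-139871692, minus strand) has 17. *Mroh1* (chr15:76380438-76453039, plus strand) has 42 coding exons and *Mroh4* (chr15:74606026-74636804, minus strand) has 24, on the same chromosome. The exons of *Mroh1* share 52 bases with those of *Bop1* on the opposite strand, none of them coding. Those of *Morc2b* share 62 with Gm52288, a lncRNA on the opposite strand. Since the strand setting of the counting is not stated, RNA reads in these bases could belong to either gene.

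Gene counts totalled 13697267 to 27462358 per RNA library and 7609932 to 13233565 per footprint library. *Mael* itself had 3800 to 5045 counts per heterozygous RNA library and 0 to 2 per *Mael*-/- RNA library, so the libraries matched their labels. Markers of the cells of a testis at this age were present in every library, and replicate 1 of the heterozygous mice stood apart. Its RNA held 878 counts per 1000000 gene counts (CPM) for the sum of 14 markers of pachytene spermatocytes, the germ cells in the long middle stage of meiotic prophase, against 265 and 290 CPM in heterozygous replicates 2 and 3 and 200 to 236 CPM in *Mael*-/- testes. CPM were scaled by TMM factors within each assay. In footprints the sum was 1106 CPM in heterozygous replicate 1, 302 and 371 CPM in the other heterozygous libraries and 256 to 301 CPM in *Mael*-/- libraries. Of the 14 markers, 12 could be tested in RNA and all 12 had a log2 difference under 0 (*Mael*-/- minus heterozygous), with a median of -1.86. By edgeR 0 passed the adjusted threshold, but 10 had an unadjusted p under 0.05, as did 5.41% of all genes. In footprints 9 could be tested and all 9 were under 0, with a median of -1.43. Of these, 8 had an unadjusted p under 0.05 by edgeR, as did 4.33% of all genes, and 0 passed the adjusted threshold. In bulk testis, fewer cells of a type and less RNA per cell cannot be told apart. Results on genes that move with this library are therefore given with and without it.

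*Morc2b*, the meiotic paralog, had in heterozygous RNA libraries 1 to 3 a level of 35.6, 3.04 and 5.76 CPM, from 820, 83 and 152 counts. In the *Mael*-/- RNA libraries it had 0.0724, 0.198 and 0.364 CPM, from 1, 4 and 10 counts. The lowest heterozygous library thus lay 8.36 times above the highest *Mael*-/- library, and the groups did not overlap. Footprints on its coding sequence followed the same order of groups. They stood at 20.6, 1.81 and 5.47 CPM in heterozygous libraries, from 194, 14 and 56 counts, and at 0.152, 0.0998 and 0.237 CPM in *Mael*-/- libraries, from 2, 1 and 2 counts. Here the lowest heterozygous library lay 7.63 times above the highest *Mael*-/- library.

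*Mroh4* had 65.2, 5.13 and 10.6 CPM in heterozygous RNA libraries 1 to 3, from 1501, 140 and 280 counts. In *Mael*-/- RNA it had 0.217, 0.0496 and 0.400 CPM, from 3, 1 and 11 counts. The gap between the groups was wider than for *Morc2b*, with the lowest heterozygous library 12.8 times above the highest *Mael*-/- library. Its footprints were 57.2, 5.55 and 8.20 CPM in heterozygous libraries, from 538, 43 and 84 counts. In *Mael*-/- libraries they were 0.0758, 0.399 and 0.355 CPM, from 1, 4 and 3 counts, and the gap between the groups was 13.9 times. For both genes heterozygous replicate 1 was the highest library in both assays, then replicate 3, then replicate 2.

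**Figure D1:**
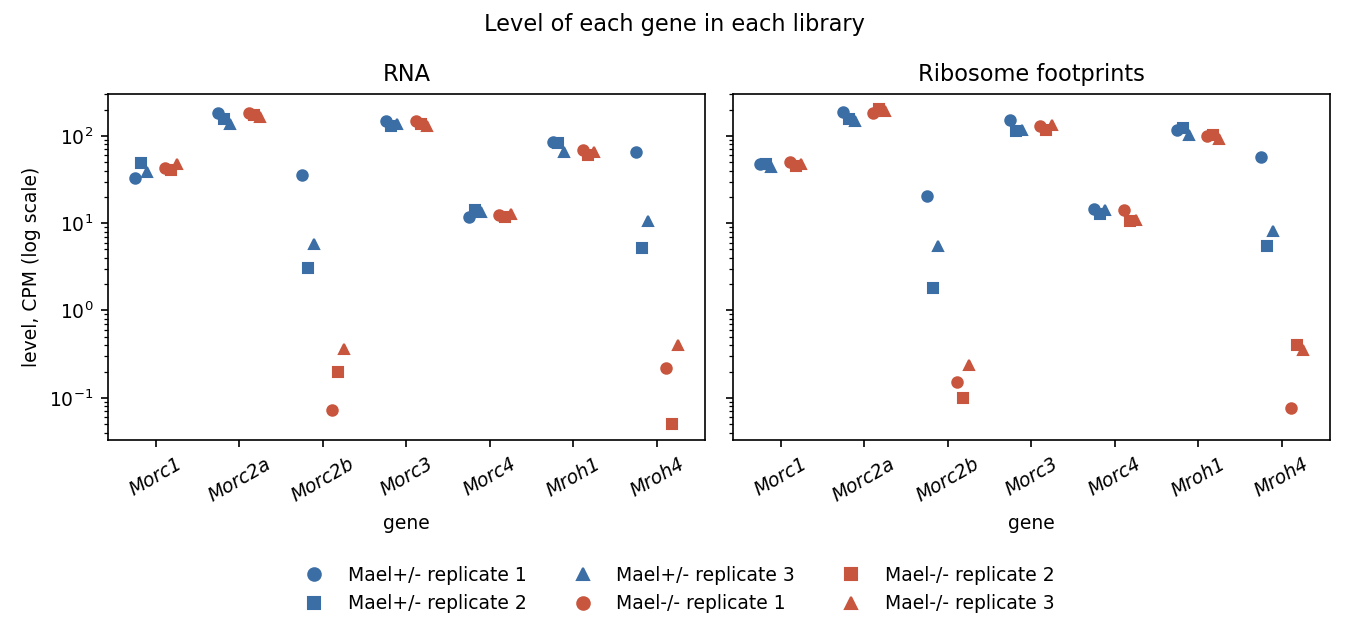
Level of the 7 genes in each library, in CPM on a log axis, for RNA (left) and ribosome footprints (right), with 1 point per library, blue for *Mael*+/- and red for *Mael*-/-, and a marker shape for each replicate. *Morc2b* and *Mroh4* fall below 0.5 CPM in all *Mael*-/- libraries, while the red and blue points of the other 5 genes overlap.

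Such a pattern used the contrast that chose these genes, so its size is given only as a description. Every heterozygous library was above every *Mael*-/- library for 5.67% of the 14685 genes tested in RNA and 4.87% of the 13500 genes tested in footprints. A gap of more than 4 times, a limit set after the values were seen, was left by 7 genes in RNA (0.0477%) and by 4 in footprints (0.0296%). *Mael*, *Morc2b*, *Mroh4* and *1700006A11Rik* were the 4 in footprints, and in RNA *1700011I03Rik*, *1700034J05Rik* and *Rfx4* were added. The filter on low counts kept all 7 genes in every fit, but *Morc2b* and *Mroh4* passed it only through their heterozygous libraries.

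With counts of the group pooled, *Morc2b* RNA was 56.4 times as high in heterozygous as in *Mael*-/- libraries (exact 95% interval 34.0 to 101). Without heterozygous replicate 1 the ratio was 17.9 (10.7 to 32.6). For *Mroh4* RNA the ratio was 103 (62.1 to 184), and 32.1 (19.2 to 57.8) without that replicate. Leaving out this one library thus lowered the ratios to a like degree for either gene in RNA. A high ratio follows from the choice of both genes, so what is left without the library is no support. In footprints the ratio of *Morc2b* was 61.0 (25.8 to 189) and 24.6 (10.1 to 78.2) without the replicate, and that of *Mroh4* was 96.0 (48.4 to 223) and 27.9 (13.8 to 66.1). These intervals cover counting error only, not the spread between replicates.

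The markers of pachytene cells moved with both genes across the heterozygous replicates. In RNA, replicate 1 over the mean of replicates 2 and 3 was 8.09 for *Morc2b*, 8.28 for *Mroh4* and 3.17 for the summed pachytene markers. In footprints the same ratio was 5.67, 8.31 and 3.28. Single pachytene markers with enough counts for a test had ratios from 1.30 to 11.8 in RNA, a range that holds both genes. Between the genotypes they ran less closely together. With replicate 1 left out, the mean of heterozygous RNA over the mean of *Mael*-/- RNA was 20.8 for *Morc2b* and 35.4 for *Mroh4*, against 1.243 for the marker sum. The 12 tested markers ranged from 0.914 to 5.29, the highest being *Spag6*, a protein of the sperm flagellum. In footprints the ratio was 22.3 for *Morc2b* and 24.8 for *Mroh4*, against 1.22 for the marker sum and at most 3.36, for *Adam2*, among 9 tested markers. With all libraries, every heterozygous library was above every *Mael*-/- library for 7 of the 12 markers in RNA and 7 of the 9 in footprints. Of all genes tested, 5.67% and 4.87% had such a gap.

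Set against the marker sum of the same library, *Morc2b* RNA was 40.5, 11.5 and 19.9 CPM per 1000 pachytene CPM in heterozygous libraries and 0.307, 0.851 and 1.82 in *Mael*-/- libraries. *Mroh4* RNA was 74.2, 19.4 and 36.6 per 1000 in heterozygous libraries and 0.921, 0.213 and 2.004 in *Mael*-/- libraries. *Mael*+/- replicate 1 was the highest library on this scale too. *Hspa2* and *Mybl1* made up 65.8% of the counts of the marker sum in RNA, and the genotype contrast on this scale is the one that chose both genes, so it adds no support. The part of the pachytene cells in the levels of *Morc2b* and *Mroh4* was not tested further.

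**Figure D2:**
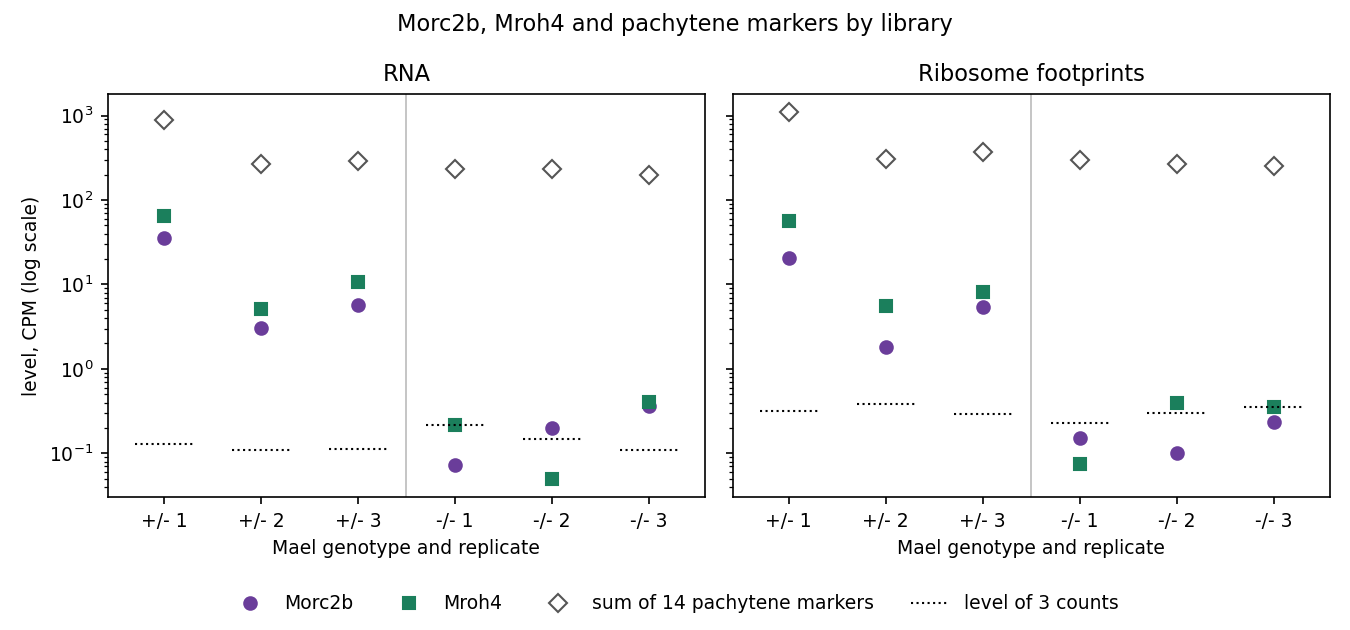
*Morc2b* (circles), *Mroh4* (squares) and the sum of 14 pachytene markers (open diamonds) in each library, in CPM on a log axis, for RNA (left) and footprints (right), with dotted lines at the level that 3 counts make in that library. The marker sum is highest in *Mael*+/- replicate 1. In RNA it is 265 and 290 CPM in the other *Mael*+/- libraries and 200 to 236 CPM in *Mael*-/- libraries. Both genes, chosen for this contrast, step down between the genotypes to a level of 1 to 11 counts.

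Genes whose levels ran most like these were found by Pearson's r of log2(CPM + 0.5), centred on the mean of each assay, over the 12 libraries, over the 14684 genes that averaged 10 or more counts in heterozygous RNA. Genotype and heterozygous replicate 1 shape every such r, and the pairs of RNA and footprint libraries share an extract. The gene most like *Morc2b* was *Mroh4* (r = 0.9897), and the reverse held too. *1700006A11Rik* came next for both, with r = 0.9873 to *Morc2b* and r = 0.9874 to *Mroh4*. It had 635, 50 and 114 counts in heterozygous RNA and 3, 0 and 0 in *Mael*-/- RNA. For *Morc2b* the list went on with *Pdcl2* (0.9828), which encodes a germ cell chaperone, *Zmynd10* (0.9789), needed to build the dynein arms of cilia and flagella, and *Fabp9* (0.9757), a fatty acid binding protein of germ cells. For *Mroh4* it went on with *Zmynd10* (0.9724), *Gstcd* (0.9672) and *Pdcl2* (0.9664). The measure ignores the size of a change, and *Gstcd* stood at 28.2 to 35.0 CPM in heterozygous RNA and 22.5 to 23.2 CPM in *Mael*-/- RNA.

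Without the RNA and footprint libraries of heterozygous extract 1, *Mroh4* ranked 4 for *Morc2b* (r = 0.9765, 10 libraries), behind *Gk2*, *Pdcl2* and *1700006A11Rik*, with *Smpd5* after it. *Morc2b* ranked 2 for *Mroh4*, between *1700006A11Rik* (r = 0.9786) and *Mael* (r = 0.9755), followed by *Ccdc60* and *Slc6a6*. Of the 5 nearest genes, 2 of *Morc2b* and 3 of *Mroh4* were not among the 5 found over all libraries. *Morc2a*, the close paralog of *Morc2b*, stood at the other end of both lists, with r = -0.9512 to *Morc2b* and r = -0.9175 to *Mroh4* over these 10 libraries, against r = -0.2517 and r = -0.2663 over all 12. Since *Morc2b* and *Mroh4* were chosen on their shared drop between the genotypes, which is most of what r measures here, their rank in each other's list is a description and no independent likeness.

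The nearest genes of the table on each side of *Morc2b* and *Mroh4* were examined as well. Only genes whose symbol matched RefSeq, 19310 of 20620, were searched, so a nearer gene listed under another symbol would be missed. Beside *Morc2b*, *Zfp563* lies 24880 bases away and *Zfp763* 102206 bases away on one side, both zinc finger genes. *Zfp563* RNA had a log2 difference (*Mael*-/- minus heterozygous) of 0.28 (SE 0.21) and *Zfp763* of -0.07 (SE 0.20), with edgeR adjusted p of 0.983 and 0.989. On the other side, *Olfr55* and *Olfr239*, olfactory receptor genes, had 0 counts in all 12 libraries. *Arc*, best known for its part in neurons, and *Jrk* lie 32276 and 65607 bases from *Mroh4*. On the other side of *Mroh4* the nearest genes with a matched symbol, *Mroh5* and *Ptp4a3*, are 766354 and 847259 bases away. *Arc* differed by 0.21 (SE 0.12) in RNA and *Jrk* by -0.05 (SE 0.11). *Ptp4a3*, a phosphatase gene, differed by -0.24 (SE 0.10, edgeR adjusted p = 0.887), and *Mroh5* had 32 counts in the 6 RNA libraries together, too few for a test. Thus edgeR called 0 of the 5 neighbours tested at an adjusted p under 0.05, against 0.116% of all genes, and 1 of them, *Ptp4a3*, had an unadjusted p under 0.05, as did 5.41% of all genes.

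The 5 genes that were not picked for the genotype had overlapping groups in both assays when all libraries were used. *Morc2a* RNA stood at 185, 155 and 136 CPM in heterozygous libraries and 183, 172 and 166 CPM in *Mael*-/- libraries. *Morc3* RNA stood at 148, 130 and 136 CPM against 147, 135 and 128 CPM. Neither gene had the gap for which *Morc2b* was picked, and the heterozygous libraries of *Morc2a* spanned those of the mutants only through replicate 1. Without that replicate both remaining heterozygous libraries of *Morc2a* lay below all mutants in RNA and in footprints, with log2 differences of 0.25 and 0.33 and edgeR adjusted p of 0.575 and 0.433. *Morc1* RNA stood at 33.2, 49.5 and 38.3 CPM in heterozygous libraries and 42.6, 41.1 and 47.3 CPM in *Mael*-/- libraries. *Morc4* RNA stood at 11.6, 14.3 and 13.5 CPM against 12.4, 11.7 and 12.7 CPM. For both, heterozygous replicate 1 was the lowest library of its genotype. *Mroh1* RNA stood at 84.0, 82.5 and 66.0 CPM against 69.6, 61.1 and 65.8 CPM, with 2 heterozygous libraries above and 1 inside the range of the mutants.

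Footprints of the same genes overlapped too. *Morc2a* footprints stood at 188, 158 and 148 CPM in heterozygous and 183, 202 and 191 CPM in *Mael*-/- libraries. Those of *Morc3* stood at 152, 113 and 115 CPM against 130, 117 and 132 CPM. Heterozygous replicate 1 was again the highest heterozygous library for both genes. *Morc1* footprints ranged from 43.4 to 47.4 CPM in heterozygous and from 45.7 to 50.7 CPM in *Mael*-/- libraries, and those of *Morc4* from 12.6 to 14.4 and from 10.7 to 14.1 CPM. *Mroh1* footprints stood at 116, 124 and 102 CPM against 100.2, 103 and 93.0 CPM, and 2 of the heterozygous libraries were above all mutants.

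In edgeR, 0 of these 5 genes had an adjusted p under 0.05 in RNA, where 0.116% of all genes passed (17 of 14685), and 0 of 5 passed in footprints, where 0.0593% passed (8 of 13500). With so few genes called at all, the size of the differences and their intervals say more than the lack of a call. On the log2 scale (*Mael*-/- minus heterozygous) *Mroh1* RNA differed by -0.24 (SE 0.11, 95% interval -0.49 to 0.01, edgeR adjusted p = 0.937). *Morc2a* RNA differed by 0.13 (interval -0.13 to 0.38), *Morc1* by 0.11 (-0.21 to 0.43), *Morc4* by -0.10 (-0.39 to 0.19) and *Morc3* by -0.01 (-0.22 to 0.19). None of the 5 had an unadjusted p under 0.05 in this fit, nor did any in footprints. There *Morc2a* differed by 0.22 (SE 0.11, interval -0.01 to 0.46) and *Mroh1* by -0.21 (SE 0.10, interval -0.43 to 0.02), both with an edgeR adjusted p of 0.998. *Morc1* differed by 0.07, *Morc3* by -0.01 and *Morc4* by -0.21 in footprints. The intervals of all 5 genes in both assays lay within -0.56 and 0.46, so that a log2 difference of 1 in either direction was outside each of them.

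Translation efficiency, the difference in footprints beyond that in RNA, asks whether ribosomes were more or less frequent on the mRNA that was there. It was called changed for 0 of the 5 genes, as for 0% of all 13448 genes in edgeR. There 52 genes (0.387%) had an unadjusted p under 0.05, none of them among the 5. DESeq2 called 0 genes as well. The log2 change ran from -0.10 for *Morc4* (SE 0.20, interval -0.53 to 0.32) to 0.10 for *Morc2a* (SE 0.16, interval -0.25 to 0.44). This fit had no term for the extract that RNA and footprints share, so its intervals are wide and the lack of a call says little. With each extract as a term edgeR called 0 genes too. The change then ran from -0.12 for *Morc4* (SE 0.17, interval -0.47 to 0.23) to 0.09 for *Morc2a* (SE 0.10, interval -0.11 to 0.30). For *Morc2b* and *Mroh4* the value is left out, since their *Mael*-/- libraries held 1 to 11 counts.

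**Figure D3:**
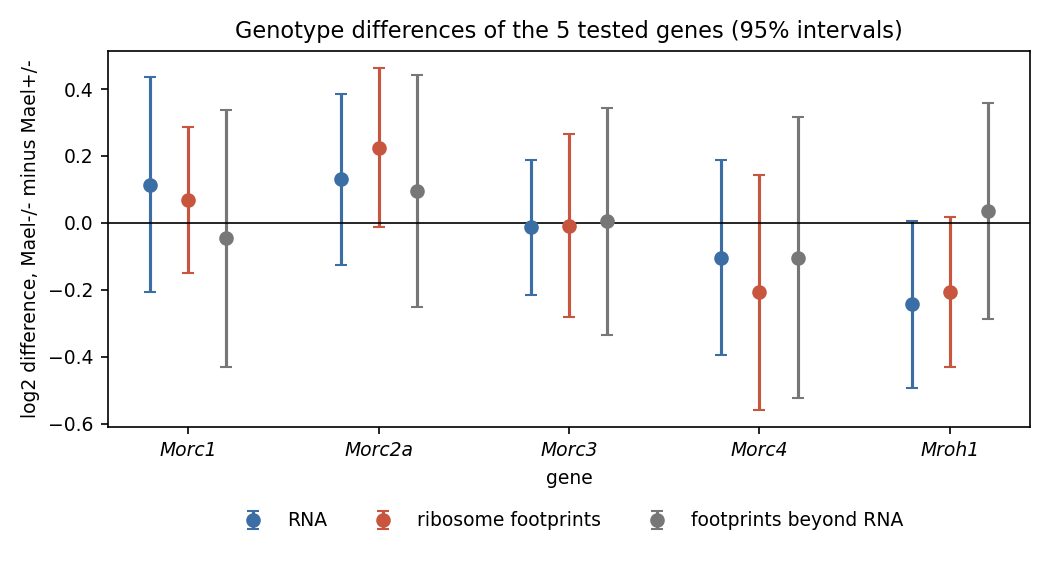
Log2 difference (*Mael*-/- minus *Mael*+/-) of the 5 tested genes in RNA (blue), in ribosome footprints (red) and in footprints beyond RNA (grey), as edgeR estimates with 95% intervals over 3 libraries a group. Every interval includes 0, with *Mroh1* RNA the nearest to leaving it (-0.49 to 0.01).

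Set against each other per length, as CPM per kilobase of mRNA, the heterozygous RNA levels ran from *Morc3* with 33.0 ± 2.27 and *Morc2a* with 29.3 ± 4.58 over *Mroh1* with 14.7 ± 1.89 and *Morc1* with 13.2 ± 2.73 to *Morc4* with 3.20 ± 0.336 (mean ± SD, n = 3). *Mroh4*, with 7.60 ± 9.35, and *Morc2b*, with 3.74 ± 4.57, spread over more than their own means. *Morc3* and *Morc2a* did not differ beyond their spread, nor did *Mroh1* and *Morc1*, nor *Mroh4*, *Morc2b* and *Morc4*. In *Mael*-/- RNA the order was *Morc3* (32.7 ± 2.25), *Morc2a* (32.1 ± 1.599), *Morc1* (14.3 ± 1.06), *Mroh1* (12.4 ± 0.807) and *Morc4* (2.98 ± 0.131), then *Mroh4* and *Morc2b* with 0.0626 ± 0.0494 and 0.0535 ± 0.0370. The heterozygous mean of *Morc2b* rests on 1 library, since the single values were 9.005, 0.770 and 1.46 in replicates 1 to 3, against 2.83, 3.49 and 3.28 for *Morc4* and 34.2, 28.7 and 25.1 for *Morc2a*. In replicates 2 and 3 *Morc2b* was therefore the lower of the pair *Morc2b* and *Morc4*, and in replicate 1 the higher, while all 3 values stayed under those of *Morc2a*.

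Footprints per kilobase of coding sequence put *Morc2a* first, with 53.1 ± 6.67 in heterozygous libraries and 62.1 ± 3.00 in *Mael*-/- libraries, and *Morc3* after it, with 44.9 ± 7.74 and 44.7 ± 2.82. *Mroh1* followed with 23.2 ± 2.28 and 20.0 ± 1.03, then *Morc1* with 16.1 ± 0.774 and 16.9 ± 0.876. At the low end *Morc4* had 4.93 ± 0.346 and 4.25 ± 0.699. Heterozygous *Mroh4* had 8.01 ± 9.84 and *Morc2b* 3.03 ± 3.25 on this scale.

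Within the heterozygous testes, footprints over RNA were compared for all 7 genes, a contrast that the choice of *Morc2b* and *Mroh4* did not use. Both nevertheless passed the filter only through these libraries. The fit also shared its estimate of the spread with their *Mael*-/- libraries, which held 1 to 11 counts. Values and p-values of *Morc2b* and *Mroh4* are therefore given here as a description only. Of all genes, edgeR called 24% higher and 34% lower in footprints, relative to the typical gene. *Mroh1* was called higher, by 0.56 on the log2 scale (SE 0.11, 95% interval 0.33 to 0.79, edgeR adjusted p = 0.000442), and had a ratio above that of 83.9% of genes. In *Mael*-/- testes, where 24.4% of genes were called higher and 34.2% lower, it was again called higher, by 0.59 (SE 0.11, interval 0.36 to 0.82, edgeR adjusted p = 0.000268). With 1 of 7 and 1 of 5 genes called higher, the share was not above that of all genes. No other gene passed in either genotype without a term for the extract.

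With each extract as a term, which pairs its RNA with its footprints, edgeR called 30.6% of all genes higher and 40.3% lower in heterozygous testes, so that most genes were called. Of the 7 genes 2 (*Morc1* and *Mroh1*) were then called higher and 1 (*Morc2b*) lower, shares not above those of all genes. The values and p-values of *Morc2b* and *Mroh4* remain a description only, so the call of *Morc2b* is no test result. *Morc2b* was lower in footprints by a log2 value of -0.58 (SE 0.15, interval -0.89 to -0.27, edgeR adjusted p = 0.00138), after -0.65 (SE 0.78, adjusted p = 0.498) without the term. *Morc1* was higher by 0.21 (SE 0.09, edgeR adjusted p = 0.0495), after 0.19 (SE 0.13, adjusted p = 0.224) without it. *Mroh4* differed by -0.19 (SE 0.12, edgeR adjusted p = 0.158) with the term and -0.18 without it, and *Mroh1* kept its call in both genotypes. The value of *Morc2b* in the single extracts was -0.79, -0.75 and -0.08, so extracts 1 and 2 were lower and extract 3 was near 0. With the term, the value of *Morc2b* was -0.28 without extract 1 (edgeR adjusted p = 0.315), -0.58 without extract 2 and -0.78 without extract 3. The paired call of *Morc1* was lost without extract 1 (0.058, edgeR adjusted p = 0.621) and without extract 3 (0.22, adjusted p = 0.122).

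These values weigh footprints on coding sequence against RNA over the whole mRNA, and coding sequence made up 57.2% of the *Morc2a* mRNA, 77.6% of that of *Morc2b* and 93.4% of that of *Mroh1*. With each taken per kilobase, *Morc2a* had the highest mean ratio of footprints to RNA, 1.82 ± 0.0738 in heterozygous extracts, above *Mroh1* with 1.58 ± 0.0930 (mean ± SD, n = 3). The 3 values of *Morc2a* (1.77, 1.78 and 1.90) lay above the 3 of *Mroh1* (1.48, 1.61 and 1.65), although only *Mroh1* was called above. *Morc4* had 1.56 ± 0.265, *Morc3* 1.35 ± 0.142, *Morc1* 1.25 ± 0.256 and *Mroh4* 1.09 ± 0.189, each within the spread of its neighbours. *Morc2b* had the lowest mean, 0.911 ± 0.270, from 0.746, 0.765 and 1.22 in extracts 1 to 3, all of them below every value of *Morc2a*. The order depends on the RefSeq mRNA taken for each gene, the one with the longest coding sequence.

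**Figure D4:**
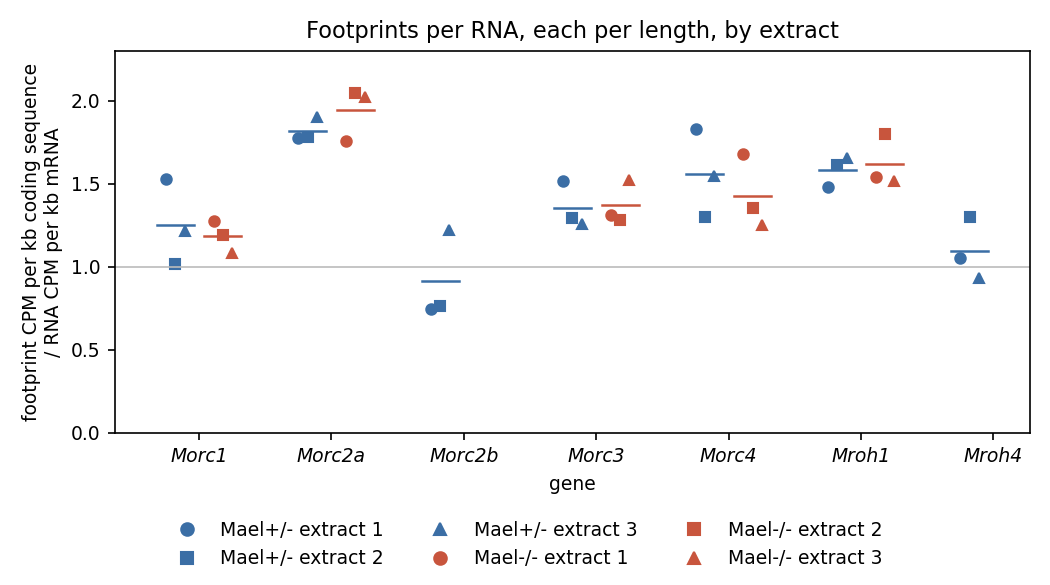
Footprint CPM per kilobase of coding sequence divided by RNA CPM per kilobase of mRNA, by extract, with 1 point per extract and a bar at the mean of 3, blue for *Mael*+/- and red for *Mael*-/-. *Morc2a* has the highest *Mael*+/- mean (1.82) and *Morc2b* the lowest (0.911). Single *Mael*+/- extracts of *Morc4* lie among the points of *Morc2a*, and those of *Morc1* and *Mroh4* among the points of *Morc2b*. *Mael*-/- points of *Morc2b* and *Mroh4* are left out because they rest on 1 to 11 counts.

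Of 17 genes that act with MORC proteins or in the same silencing pathways, 15 were in the table. By edgeR 0 of 15 passed in RNA, in footprints or in translation efficiency, where 0.116%, 0.0593% and 0% of all genes did. An unadjusted p under 0.05 was reached by 0 of 15, against 5.41%, 4.33% and 0.387% of all genes. With shares this low, 0 of 15 does not set the list apart from all genes. In RNA 7 had a log2 difference above 0 and 8 below, with a median of -0.05 against -0.01 over all genes. *Setdb1*, a histone methyltransferase that serves the HUSH complex, was the highest with 0.15 (SE 0.09, edgeR adjusted p = 0.981), and *Dnmt3b*, a DNA methyltransferase, the lowest with -0.24 (SE 0.14, edgeR adjusted p = 0.969). Their values were of the size of those of the 5 tested genes. *Dnmt3c* and *Spocd1* were not analysed here.

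The other maestro HEAT-like repeat genes that could be tested all had log2 differences below 0, 5 of 5 in RNA with a median of -0.97 and 4 of 4 in footprints with a median of -0.55, against -0.01 over all genes in either assay. *Mro*, the founding member, differed by -0.01 (SE 0.08) in RNA, at 199 ± 8.76 CPM in heterozygous and 199 ± 7.70 CPM in *Mael*-/- libraries. *Mroh2b* had 370, 31 and 32 counts in heterozygous RNA and 6, 12 and 11 in *Mael*-/- RNA, and *Mroh2a* had 94, 11 and 19 against 5, 3 and 7. Both had heterozygous replicate 1 as their highest library, as *Mroh4* did. *Mroh2b* RNA differed by -3.67 (SE 1.05) and *Mroh2a* RNA by -2.77 (SE 0.89), with edgeR adjusted p of 0.677 and 0.784. *Mroh7* RNA differed by -0.90 (SE 0.32, edgeR adjusted p = 0.852) from 105 against 45 counts, and *Mroh8* RNA by -0.97 (SE 0.48, edgeR adjusted p = 0.941) from 444 against 187. Without heterozygous replicate 1 the pooled ratio of heterozygous to *Mael*-/- RNA was 2.01 for *Mroh7* and 1.07 for *Mroh8*. For *Mroh2a* this ratio was 6.63 with all libraries and 2.29 (exact 95% interval 1.19 to 4.58) without that replicate. Pooled, *Mroh2b* RNA was 11.97 times as high in heterozygous libraries (exact 95% interval 8.21 to 18.1), but 2.49 times (1.58 to 4.01) without replicate 1. Of 5 such genes tested in RNA, 0 passed the adjusted threshold and 3 (*Mroh2a*, *Mroh2b* and *Mroh7*) had an unadjusted p under 0.05, where 0.116% and 5.41% of all genes did. In footprints it was 0 of 4 and 1, where 0.0593% and 4.33% of all genes did. *Mroh5* and *Mroh6* had too few counts, *Mroh9* had 0 counts in all libraries, and *Mroh3* was not analysed here.

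For markers of the remaining cell types the ranges of the genotypes overlapped in RNA. Their summed RNA ranged from 1037 to 1251 CPM in heterozygous and 1033 to 1120 CPM in *Mael*-/- libraries for spermatogonia, and from 859 to 1915 against 863 to 1181 CPM for early meiotic prophase. Sertoli cells gave 5708 to 6500 against 5760 to 6360 CPM, Leydig cells 324 to 540 against 271 to 527 CPM and macrophages 76.5 to 124 against 112 to 126 CPM. Tested were 8 genes each for spermatogonia, early prophase and Sertoli cells, 6 for Leydig cells and 5 for macrophages. By edgeR 0 of them passed in either assay, where 0.116% (RNA) and 0.0593% (footprints) of all genes did. An unadjusted p under 0.05 was reached in RNA by 1 Leydig and 1 macrophage gene and in footprints by 1 gene of early prophase. Of all genes 5.41% and 4.33% did. The 5 macrophage genes all had a log2 RNA difference above 0, with a median of 0.38. Each marker list had counts for all of its genes, and *Acrv1*, the gene of the pachytene list best known from round spermatids, was near 0 with 5 counts in heterozygous and 5 in *Mael*-/- RNA.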

How the data were processed

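Total RNA and MNase-protected ribosome footprints of testicular extracts were sequenced in 12 libraries, 3 for each genotype and assay. Per the labels and the study's methods, the authors removed linkers and ribosomal reads (Bowtie 1.2.2), aligned to mm10 with STAR 2.6.0c and counted with featureCounts (Subread 1.6.4), taking the whole mRNA in RNA libraries and the coding sequence in footprint libraries. The strand setting and the treatment of duplicate reads are not given in the sources used here. The deposited values are raw counts for 20620 genes and 5138235 repeat copies, and the latter were left out of library sizes. The deposited result tables of the authors hold log2 fold changes, standard errors and p-values from DESeq2 1.24.0 and were not used.

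The quasi-likelihood F-test of edgeR 4.0.16 (R 4.3.3) was run with TMM factors for each assay, filterByExpr and Benjamini-Hochberg adjustment over all genes tested, and a gene was called when its adjusted p fell below 0.05. The genotypes were compared over 6 libraries within an assay. Translation efficiency and footprints over RNA came from 1 fit over all 12. The alternatives were DESeq2 1.42.0, median-of-ratios factors, no filter, a mean of at least 50 counts, a replicate block and leaving out each library. The edgeR fits without a block were tested on simulated counts, for the genotypes in each assay, translation efficiency and heterozygous footprints over RNA. The simulated counts held no extract effect, and the fits with a block and DESeq2 were not simulated. RNA and footprint libraries of the same genotype and number came from 1 extract, and their deviations from the group means correlated with r of 0.795, 0.649 and 0.698 (heterozygous) and 0.253, 0.267 and 0.261 (*Mael*-/-) over 12265 genes, all above the limit of 0.1 for pairs. Depth sets the precision of low genes, and 3 counts made 0.110 to 0.130 CPM in heterozygous RNA. Ratios of pooled counts carry exact binomial intervals.

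The text names the 7 genes, *Mael*, the 5 genes most like *Morc2b* and *Mroh4*, their 2 nearest genes on each side, and from a list of silencing partners and one of other maestro genes the called, highest, lowest and uncounted ones. Other genes were named after their values were seen. The 7 genes, the lists and the markers were chosen with earlier results of these data known. Gene models, start windows and coding sequences are RefSeq's on GRCm38. All 7 genes matched a symbol there, as did 19310 of the 20620 genes of the table, and only these were searched for neighbours.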

Additional observations from a re-analysis of the deposited data

How the results depend on the processing

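Over 200 alternative values of the 5 tested genes in RNA, footprints and translation efficiency, 0 passed the threshold (lowest adjusted p 0.345, edgeR or DESeq2). Of 437 tested values in all, 395 kept direction and side, 34 changed sign and 8 gained a call. With single libraries left out, the log2 values that changed sign ranged in RNA from -0.0066 to 0.29 (*Morc1*) and -0.067 to 0.041 (*Morc3*), in footprints from -0.083 to 0.14 (*Morc3*), in translation efficiency from -0.22 to 0.075 (*Morc1*), -0.030 to 0.20 (*Morc2a*), -0.069 to 0.16 (*Morc3*) and -0.039 to 0.14 (*Mroh1*), in heterozygous footprints over RNA from -0.049 to 0.17 (*Morc2a*), -1.96 to 1.09 (*Morc2b*), -0.020 to 0.13 (*Morc4*) and -1.94 to 1.59 (*Mroh4*), and in *Mael*-/- footprints over RNA from -0.19 to 0.031 (*Morc4*). Leaving out a library this way breaks the pairing of an extract. Without the pair of heterozygous extract 1, added after the data were seen, efficiency changed sign for *Morc1* (0.098), *Morc4* (0.015) and *Mroh1* (-0.012), and heterozygous footprints over RNA for *Morc4* (-0.047). Heterozygous footprints over RNA gained a call for *Morc1* without RNA replicate 2 (0.36) and for *Morc3* without footprint replicate 1 (-0.26). Without heterozygous replicate 1 the fitted difference of *Morc2b* shrank, to -4.16 from -5.91 (RNA) and to -4.47 from -5.78 (footprints), as did that of *Mroh4*, to -4.99 from -6.77 (RNA) and to -4.71 from -6.48 (footprints).

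Genes called in RNA numbered 17, and 4 with a mean of at least 50 counts, 64 by DESeq2 and 2 to 59 with a library left out (59 without heterozygous replicate 1, 8 without heterozygous replicate 3, and 2, 8 and 8 without *Mael*-/- replicates 1 to 3). In footprints they numbered 8, then 1, 26 and 2 to 17 (17, 4 and 2 without heterozygous replicates 1 to 3, 3, 3 and 4 without *Mael*-/- replicates 1 to 3). The cause was not tested. The labels link heterozygous and *Mael*-/- libraries by a number only, and their deviations correlated with r from -0.0134 to 0.27. Some of these passed the limit of 0.1 (0.27 and 0.188 in RNA, 0.248 in footprints). They came near the 0.253 to 0.267 of the *Mael*-/- extracts, so r does not settle whether the genotypes were paired. The replicate block gave 48 calls in RNA and 22 in footprints and turned *Morc3* footprints to 0.0016. With each extract as the block, 0 genes were called for efficiency, 9537 for heterozygous and 9566 for *Mael*-/- footprints over RNA (7798 and 7881 without it), and apart from *Morc1* and *Morc2b* it changed no call of a named gene. With the replicate block, unadjusted p was under 0.05 for *Mroh1* in RNA (0.0458) and footprints (0.0445) and for *Morc2a* footprints (0.0496), with edgeR adjusted p of 0.741, 0.897 and 0.897. Each extract as the block and heterozygous extract 1 left out, added after the data were seen, turned *Morc4* to -0.044 and called *Morc3* (-0.21).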
